A study of Mus musculus with 16 samples.

Results

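The genes described here are 35 transcripts of mitosis and the G2/M transition, taken by their symbols from the 23337 genes counted in each of 16 RNA sequencing libraries of mouse CD4+ T cells. The list is of symbols and applies no threshold to a measured value, but it was drawn up with earlier results of these data known. All 35 had reads in every library and all 35 passed the low-count filter that left 12952 genes for testing.

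Every group shared the same cells, which were C57BL/6 CD4+ T cells of genotype Dgcr8f/f Tbet-/- CD4-cre (Tbet is also written Tbx21) sorted live as RosaYFP+. Dgcr8 is needed to make most microRNAs, Tbx21 encodes the Th1 factor T-bet, and Cd4-cre acts in T cells from the thymus on, so the control cells carry the same alleles. Cultures received antibodies to CD3 and CD28 with 10 units/ml of IL-4 over 3 days and were then kept in 20 units/ml of IL-2 over 2 days. A synthetic microRNA, called a mimic, was electroporated at 500 nM on day 1 and day 4. The mimic was miR-23a, miR-24, miR-27a or a control mimic of unstated sequence, with 4 libraries in each of the 4 groups. The labels give no age, mouse, lane or date for a library. The series text speaks of at least biologic triplicates, so the p-values measure the spread between libraries, part of which may be technical.

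Cells enter mitosis when cyclin B and cyclin A activate the kinase Cdk1. Polo and Aurora kinases then build the spindle, the kinetochores attach chromosomes to it, and the spindle checkpoint holds back the anaphase-promoting complex until they are attached. The complex, with its activator Cdc20, destroys cyclin B and securin, and the cell then divides by cytokinesis. Most of these transcripts rise late in each cell cycle, and activated T cells divide fast, so their levels in a culture depend on how many cells are in that phase as well as on the amount in each cell. In bulk RNA these cannot be told apart. The microRNAs of this cluster pair through their seed, bases 2 to 8, with sites in 3-prime UTRs and lower the transcripts that hold them. In human cell lines miR-24 has been reported to lower CDK1, CCNA2 and AURKB.

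The mature sequences of the 3 mimics are shown because the seed decides which members could be bound. The labels do not name the arms, so the 3p arms are assumed. They are from RefSeq, GRCm38.p6, and the seed is in capitals. The genes lie on mouse chromosome 8, plus strand, at chr8:84208563-84208583 for miR-23a, chr8:84208875-84208896 for miR-24 and chr8:84208727-84208747 for miR-27a. No seed is shared.
miR-23a-3p: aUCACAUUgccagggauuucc
miR-24-3p: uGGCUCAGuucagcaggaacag
miR-27a-3p: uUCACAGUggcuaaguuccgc

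Members held few sites of these seeds. The longest annotated 3-prime UTR among the coding transcripts of each gene was searched (GENCODE M21, GRCm38). In it 4 of 35 members held a site of miR-23a, 6 a site of miR-24 and 8 a site of miR-27a. These are 11.4%, 17.1% and 22.9% of members, beside 25.3%, 27.0% and 29.7% of the 11995 tested genes with an annotated 3-prime UTR. A site was the 8mer AATGTGAA, CTGAGCCA or ACTGTGAA, or its first or last 7 bases. Sites of 8 bases were found in Mad2l1 for miR-23a, in Birc5 and Mad2l1 for miR-24, and in Cdc25b for miR-27a. Besides Cdc25b, a site of miR-27a was held by Aurka, Birc5, Ccna2, Cdk1, Ect2, Mad2l1 and Nusap1, and 5 of these 8 members had positive values with miR-27a. Besides Cenpf, a site of miR-24 was held by Birc5, Cdk1, Mad2l1, Plk1 and Tpx2, and 2 of these 6 members had positive values with miR-24. The site in Cdc25b, a phosphatase that activates Cdk1, and the 7-base miR-24 site in Cenpf, a large kinetochore protein, are shown as examples. Both genes had negative values with that mimic against control. The site is in capitals, read on the gene's strand, at chr2:131198052-131198059 (plus strand) and chr1:189642528-189642534 (minus strand).
Cdc25b, site of miR-27a: catcctcactACTGTGAAccccagagcc
Cenpf, site of miR-24: ggacttgtctTGAGCCAaggacacatt

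Many members also shared promoter letters. In the RefSeq windows from 250 bases before to 50 bases after a start (GRCm38.p6), which matched 29 of the 35 members with 31 starts, TTTGAA (on either strand) was present in 67.7% of member windows and 17.9% of all 32851. CCAAT was present in 74.2% of member windows and 37.4% of all, and both motifs in 58.1% and 6.95%. The matches of TTTGAA and CCAAT overlapped in 0 member windows and in 47 of all windows. TTTGAA is the core of the CHR element, which with CCAAT boxes is known from promoters of late cell cycle genes. The 150 bases before the start are shown for 4 members with positive values in the comparison of miR-27a with control, with either motif in capitals on either strand. Cdk1 and Cdc20 hold both motifs here, Ccnb1 holds CCAAT, and Anln holds none of these letters. The positions are chr13:100786487-100786636 for Ccnb1, chr10:69352913-69353062 for Cdk1, chr4:118437344-118437493 for Cdc20 and chr9:22389207-22389356 for Anln, all on the minus strand.
Ccnb1: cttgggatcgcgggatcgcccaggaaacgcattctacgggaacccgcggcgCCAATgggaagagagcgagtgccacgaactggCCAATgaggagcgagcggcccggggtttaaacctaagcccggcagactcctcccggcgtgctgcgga
Cdk1: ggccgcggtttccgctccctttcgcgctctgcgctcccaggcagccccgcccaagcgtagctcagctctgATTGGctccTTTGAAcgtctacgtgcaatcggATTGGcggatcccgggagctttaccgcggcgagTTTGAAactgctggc
Cdc20: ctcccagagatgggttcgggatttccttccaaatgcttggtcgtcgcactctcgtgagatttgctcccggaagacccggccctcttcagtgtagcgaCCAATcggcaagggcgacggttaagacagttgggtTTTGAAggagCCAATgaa
Anln: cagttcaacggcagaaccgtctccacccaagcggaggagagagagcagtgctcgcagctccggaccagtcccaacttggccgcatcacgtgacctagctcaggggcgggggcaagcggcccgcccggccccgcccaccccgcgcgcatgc

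The libraries were not equally deep. Control replicate 1 had 51474 gene reads, 1116 of them from the members, against 2120408 to 13714841 gene reads in the other 15 libraries. One read there was 16.3 CPM (reads scaled to a common library size by TMM), and members had 1 to 380 reads in it. Its Ccnb1 value of 97.6 CPM rested on 6 reads, with an exact 95% Poisson interval of 35.8 to 212 CPM for counting error. Control replicate 4 also stood apart, with the highest value of the 15 deeper libraries for 7 members and the lowest for 3. Rn45s, a ribosomal RNA precursor, took 0.300% of gene reads in the lowest library and 19.1% in the highest, with means of 6.06% for miR-23a, 9.07% for miR-24, 6.16% for miR-27a and 2.10% for control. The 8 T cell markers summed to 3615 to 4413 CPM with miR-23a, 2899 to 3655 CPM with miR-24, 2952 to 3490 CPM with miR-27a and 3270 to 4862 CPM in control libraries. Sums over 10 myeloid and dendritic markers were 22.8 to 42.8, 27.4 to 42.0, 29.7 to 98.5 and 16.3 to 34.0 CPM in the same order. Sums over B cell, CD8 or NK, and red cell markers reached at most 36.6 CPM, with Ncr1 and the hemoglobin genes Hba-a1, Hba-a2 and Beta-s at 0 reads in all libraries. The part of these markers and of Rn45s in the results was not tested, apart from a fit without Rn45s given below. Dgcr8 had 32.4 to 58.4 CPM in the deeper libraries, which gene counts cannot assign to the intact or deleted allele, and Tbx21 reached at most 5.19 CPM.

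The members took 0.928% to 2.72% of gene reads. Their share averaged 1.51% ± 0.433 with miR-23a, 1.53% ± 0.615 with miR-24, 1.81% ± 0.353 with miR-27a and 1.98% ± 0.582 in control libraries (SD, n = 4 each), so the ranges of the groups overlapped. In control libraries 1 member, Mki67, averaged 7708 CPM of a sum of 19910 CPM. Without Mki67 the sums averaged 10670 ± 2274 CPM with miR-23a and 10380 ± 2038 CPM with miR-24. They averaged 12950 ± 1875 CPM with miR-27a and 12200 ± 1920 CPM in control libraries, a difference smaller than the spread. The mean log2-CPM of the members was highest with miR-27a, 7.79 ± 0.170 against 7.58 ± 0.0808 in control libraries. Levels per length spread widely among members. In control replicates 2, 3 and 4, Mki67, the proliferation marker Ki-67 that coats mitotic chromosomes, had 817 ± 606 CPM per kilobase of exon (SD, n = 3). Top2a, the topoisomerase that untangles chromosomes, followed with 402 ± 107 CPM per kilobase. Nusap1, Ccnb2 and Ccna2 lay between 166 and 184 CPM per kilobase, within the spread of Nusap1. At the low end stood the phosphatase gene Cdc25c with 8.33 ± 1.58 and securin, Pttg1, with 7.73 ± 3.37 CPM per kilobase, a difference smaller than their spread. Cyclin B1 and Cdk1, with 22.0 ± 2.50 and 18.7 ± 2.40 CPM per kilobase, lay low in the order.

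**Figure D1:**
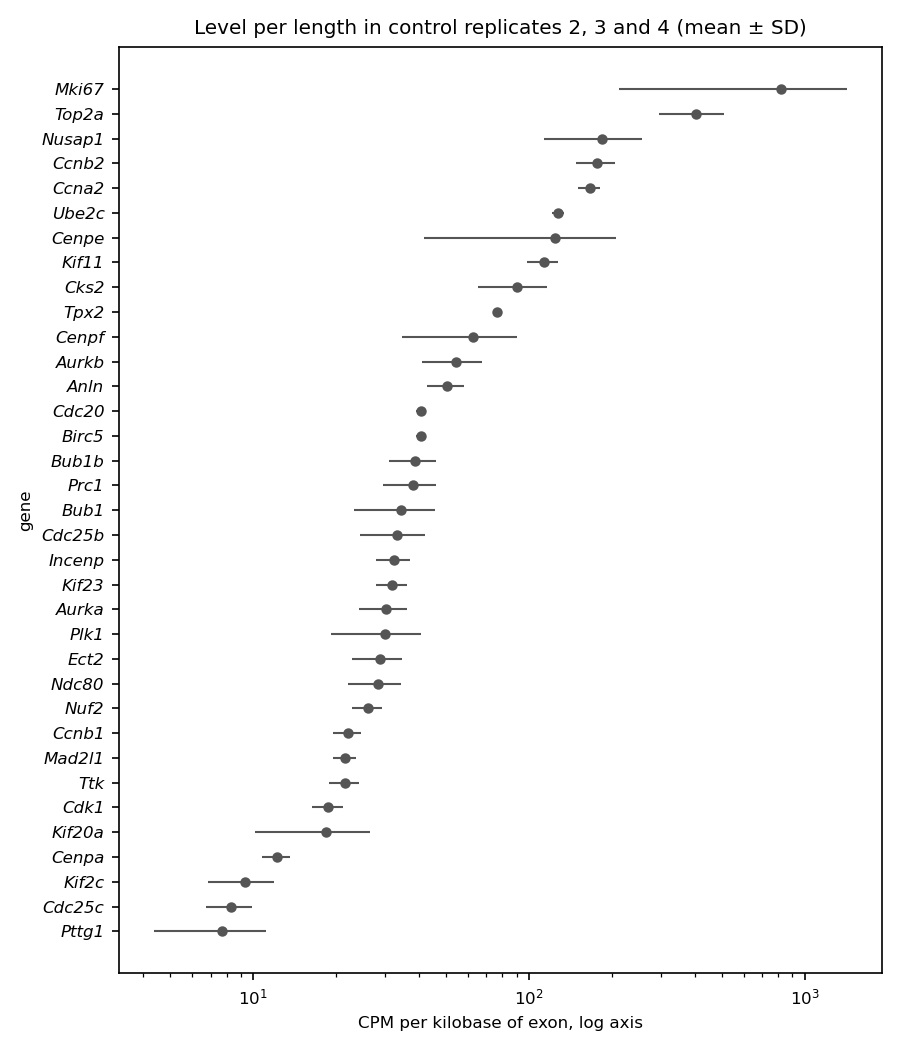
Points are the means and bars the SD (n = 3) of CPM per kilobase of exon, on a log axis, for the 35 members in control replicates 2, 3 and 4, ordered by mean. Mki67 and Top2a lie above the rest, and Mki67, Cenpe and Nusap1 have wide bars.

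Over the 16 libraries, the group explained a median of 32.2% of a member's variance in log2-CPM, the replicate number 25.3% and the rest 39.7%. The medians over all tested genes were 24.6%, 23.2% and 46.3%. Anln, Cdc20 and Ccnb1 had the largest shares for the group, 64.6%, 64.2% and 64.0%. Without the 4 libraries numbered 1 these shares were 59.1%, 72.3% and 78.3%, and Ccnb1, Cdc20 and Tpx2 (69.3%) had the largest. Top2a had the largest share for the replicate number, 66.0%, with 15.9% for the group. Single libraries were often high or low across many members: miR-27a replicate 2 was the highest of the 15 deeper libraries for 12 members, and miR-23a replicate 3 the lowest for 14.

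**Figure D2:**
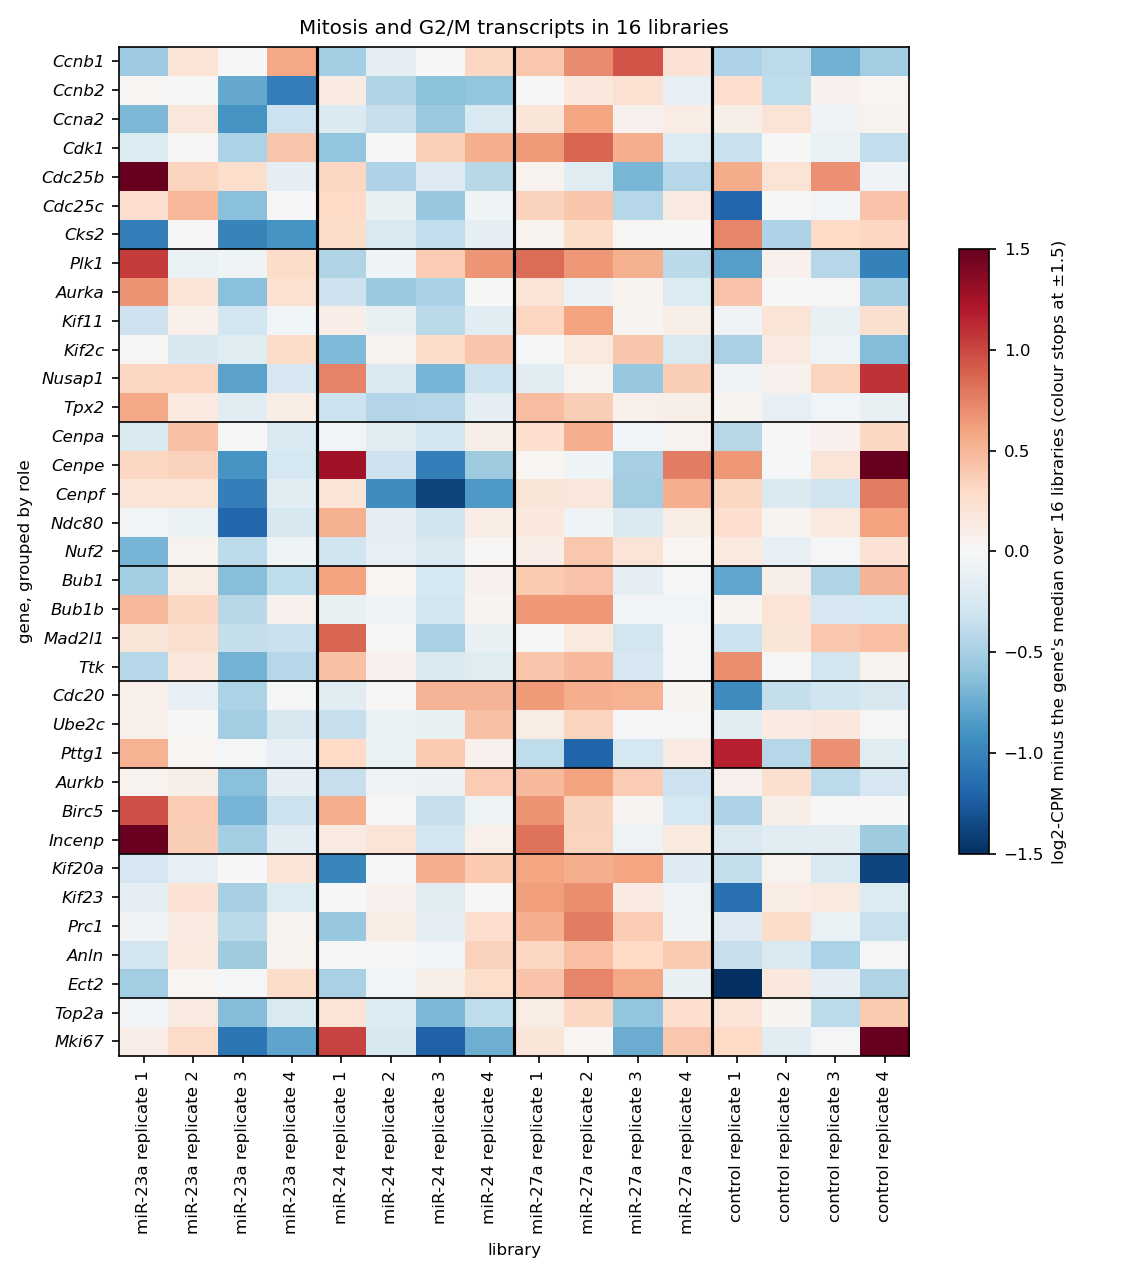
Colours give each member's log2-CPM minus its median over the 16 libraries, with members grouped by role down the page and libraries across it. The miR-27a columns are mostly red for cyclin B1, Cdk1, Plk1, Cdc20 and the cytokinesis genes, and control replicate 4 is dark red for Mki67, Cenpe and Nusap1.

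The comparison of miR-27a with control held the largest log2 fold change of a single member, 1.23 for Ccnb1. The transcripts of Ccnb1 and Anln rose. The test was the quasi-likelihood one of edgeR, with p adjusted by Benjamini and Hochberg's method over all 12952 genes, in a fit of all 16 libraries with the replicate number as a block. They are 2 of 35 members, where 3.07% of all tested genes were called and 1.75% were called higher. Without the block 0 of the 35 passed, while 0.17% of all tested genes did, and the values without it are given for each gene. Among all members 24 log2 fold changes were positive and 11 negative, with a median of 0.13, against 51.4% positive and a median of 0.02 over all tested genes. Of 37 DNA replication genes 28 were positive (median 0.33), and of 73 other mitosis genes 44 were (median 0.07).

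Ccnb1 encodes cyclin B1, the cyclin that takes Cdk1 into mitosis. It had 179, 221, 260 and 157 CPM in miR-27a replicates 1 to 4, against 97.6, 103, 81.8 and 93.6 CPM in control replicates 1 to 4. Every miR-27a library lay above every control library. The log2 fold change was 1.23 ± 0.225 (SE; edgeR adjusted p = 0.00665), higher in 4 of 4 same-numbered pairs. Without the block it was 1.13 with an edgeR adjusted p of 0.0691. The edgeR call was also lost without miR-27a replicate 3 (adjusted p = 0.0566) or control replicate 3 (0.0741), and held in the other 14 fits that left out 1 library, among them the fit without control replicate 1 (0.0101). Ccnb1 holds no site of the 3 seeds. Its transcript has 3 pseudogene copies over at least 50% of its length, with 97.3% to 99.2% identity (Gm8416, Gm12856 and Ccnb1-ps), none of which is a feature in the files. The counts of Ccnb1 are less certain for that reason.

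Anln encodes anillin, a scaffold of the contractile ring in cytokinesis. Its values were 665, 734, 660 and 703 CPM in miR-27a libraries and 423, 457, 385 and 525 CPM in control libraries. The groups did not overlap, and the miR-27a libraries were close together. The log2 fold change was 0.64 ± 0.159 (SE; edgeR adjusted p = 0.0347), and without the block it was 0.62 with an edgeR adjusted p of 0.159. The call was lost without miR-24 replicate 2 or 3 (edgeR adjusted p = 0.0517 and 0.0573), miR-27a replicate 1, 2 or 3 (0.0950, 0.106 and 0.169), or control replicate 1, 2, 3 or 4 (0.0555, 0.0525, 0.154 and 0.0931). It was lost too without the low-count filter (edgeR adjusted p = 0.0537) and without the 4 libraries numbered 1 (0.0765).

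**Figure D3:**
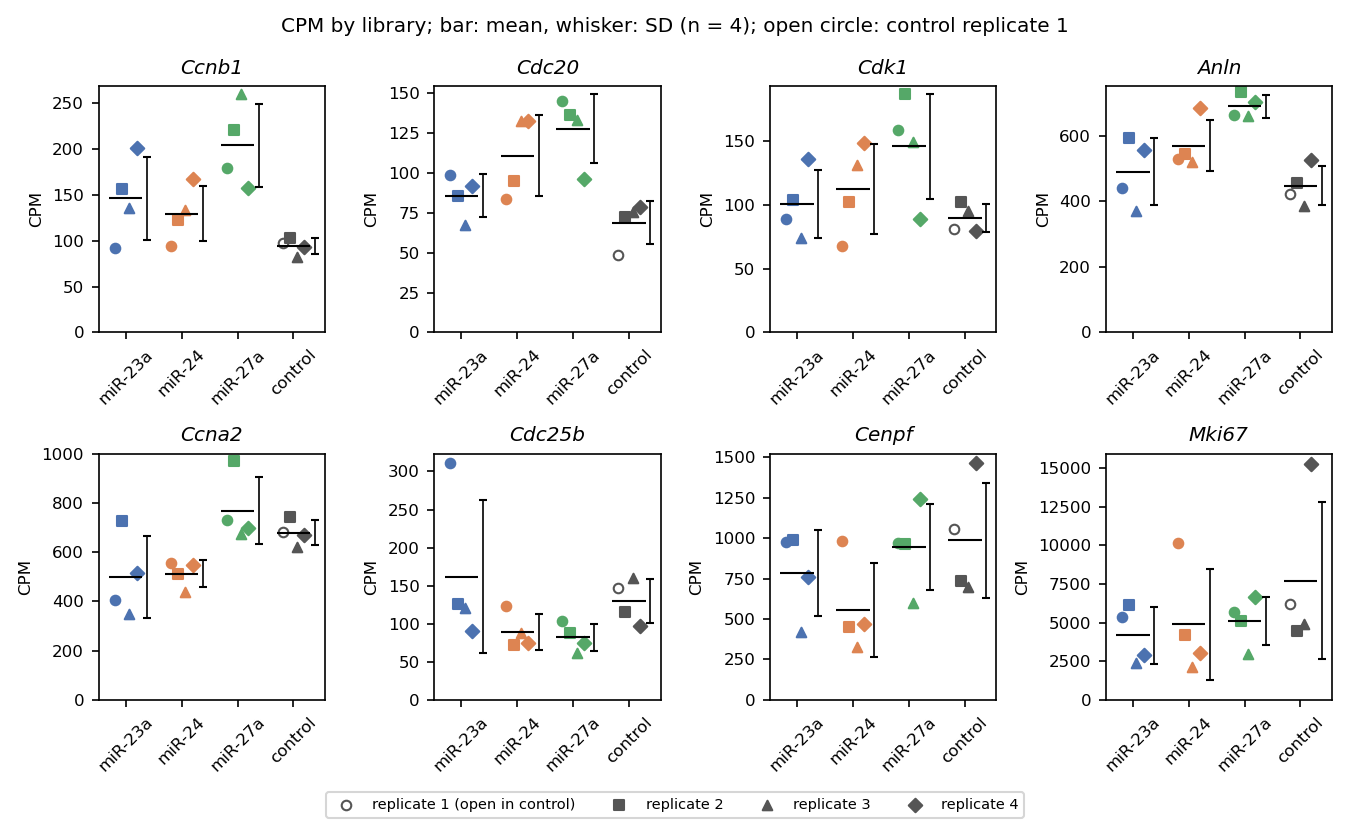
Each symbol is the CPM of 1 library, with the shape giving the replicate number, horizontal bars the group mean and whiskers the SD (n = 4). The miR-27a libraries lie above all control libraries for Ccnb1, Cdc20 and Anln, and control replicate 4 lies far above the other controls for Mki67.

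Of the 7 cyclins, Cdk1 and its regulators 4 had positive and 3 negative values with miR-27a, with a median log2 fold change of 0.06, and Ccnb1 alone among these 7 passed. Cdc20, Cdk1 and Plk1 had positive values that did not pass. Cdc20, the activator of the anaphase-promoting complex, had 145, 137, 134 and 96.0 CPM in miR-27a libraries and 48.8, 72.5, 75.7 and 78.7 CPM in control libraries. The groups did not overlap, and the log2 fold change was 0.79 ± 0.223 (edgeR adjusted p = 0.0584). Cdk1, the mitotic kinase, had 159, 187, 149 and 88.8 CPM in miR-27a libraries and 81.3, 102, 95.5 and 79.2 CPM in control libraries, a log2 fold change of 0.73 ± 0.275 (edgeR adjusted p = 0.141). In both genes miR-27a replicate 4 was lower than the other 3 miR-27a libraries. Plk1, the polo kinase, had 154, 136, 125 and 65.4 CPM with miR-27a and 48.8, 90.1, 64.4 and 42.8 CPM in control libraries, a log2 fold change of 0.82 ± 0.343 (edgeR adjusted p = 0.184). Ccna2, cyclin A2, stood at 0.17 ± 0.176 and Ccnb2, the second mitotic B-type cyclin, at 0.06.

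Cdc25b, which holds the 8-base site of miR-27a shown above, had a value in the other direction. It had 103, 88.2, 62.1 and 74.3 CPM in miR-27a libraries and 146, 115, 160 and 96.5 CPM in control libraries. Only the highest miR-27a library and the lowest control library crossed, and all 4 pairs were lower with miR-27a. The log2 fold change of -0.73 ± 0.228 did not pass (edgeR adjusted p = 0.0790). Across the 8 members with a miR-27a site, 3 values were negative and 5 positive, with a median of 0.06. Over all tested genes the median was -0.10 with a site, -0.28 with an 8-base site and 0.10 without one.

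All 5 cytokinesis genes had positive values with miR-27a, with a median log2 fold change of 0.64. Against the same control libraries 5 of them were positive with miR-24 (median 0.31) and 4 with miR-23a (median 0.12). Besides Anln, the list holds the spindle midzone genes Kif20a (0.92 ± 0.317), Prc1 (0.51 ± 0.204) and Kif23 (0.43) and the RhoA exchange factor gene Ect2 (0.79 ± 0.244), whose edgeR adjusted p was 0.0777. In control replicate 1 the Ect2 value of 32.5 CPM rested on 2 reads. The 3 genes of the chromosomal passenger complex, which corrects attachments and steers cytokinesis, were positive as well. Aurora B kinase, Aurkb, had 241, 261, 223 and 138 CPM in miR-27a libraries and 179, 204, 131 and 144 CPM in control libraries, with overlap between the groups (0.42 ± 0.228, edgeR adjusted p = 0.279). Kinetochore genes were mixed, with 2 positive and 3 negative values. Top2a stood at -0.05 ± 0.172 (edgeR adjusted p = 0.907) and Mki67 at -0.61 ± 0.380 (edgeR adjusted p = 0.357). Sums over CD8 and NK markers were 11.3 to 36.6 CPM with miR-27a and 0 to 31.7 CPM in control libraries. Sums over red cell markers were 4.03 to 6.28 CPM and 0 to 5.09 CPM, with Ncr1 and hemoglobin reads at 0. The myeloid and dendritic marker sum was highest in the miR-27a group. The part of these markers in these values was not tested.

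The count of members called with miR-27a moved with single libraries. It was 6 without miR-27a replicate 4, namely Anln, Ccnb1, Cdc20, Cdk1 and Ect2 higher and Cdc25b lower, and 6.58% of all tested genes were called in that fit. Omitting replicate 1 of miR-23a, replicate 1 or 4 of miR-24 or replicate 2 of control gave 3, with 3.38% to 7.67% of all tested genes called. It was 1, Ccnb1, without miR-24 replicate 2 or 3, miR-27a replicate 1 or 2, or control replicate 1 or 4 (1% to 2.41% of all tested genes), and 0 without miR-27a replicate 3 or control replicate 3 (0.464% and 0.388%). A fit of the miR-27a and control libraries alone, with the block, called 13 members, 9 higher and 4 lower, and 16.7% of all tested genes. Leaving Rn45s out of the library sizes kept Ccnb1 (edgeR adjusted p = 0.00685) and Anln (0.0405).

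**Figure D4:**
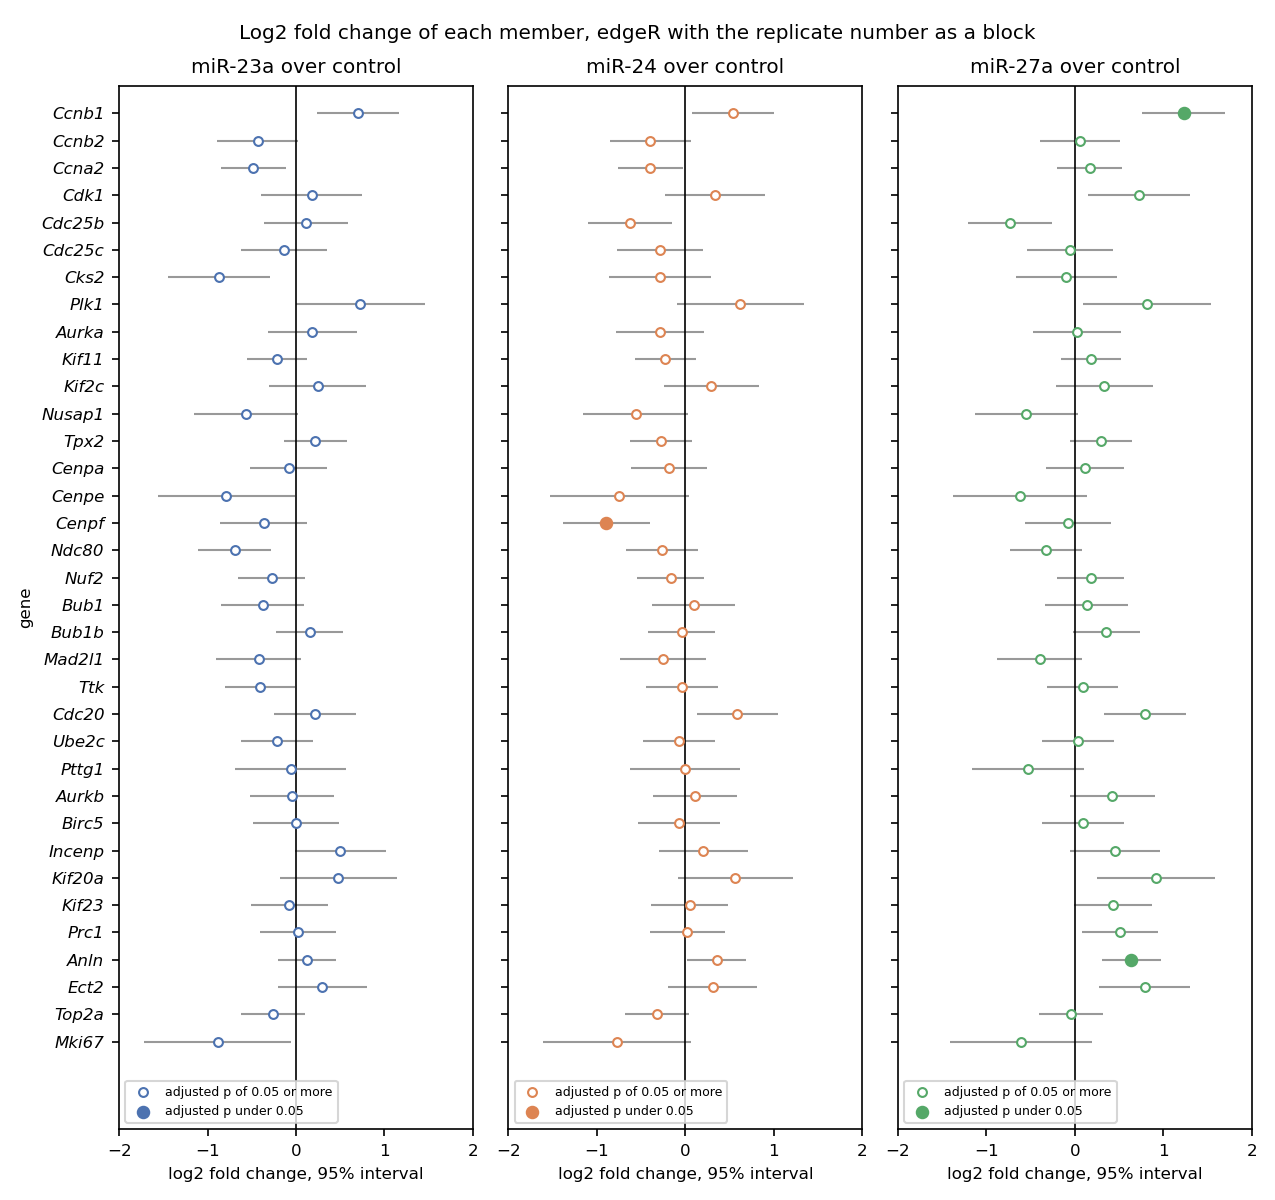
Points are log2 fold changes of the 35 members over control with 95% intervals, from edgeR with the replicate number as a block, for miR-23a, miR-24 and miR-27a from left to right. Filled points passed an adjusted p of 0.05: Cenpf with miR-24 and Ccnb1 and Anln with miR-27a.

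With miR-24, 1 of 35 members changed: Cenpf fell. Over all tested genes 4.56% were called and 2.25% were called lower. Cenpf had 980, 448, 326.5 and 471 CPM in miR-24 libraries and 1057, 737, 696 and 1464 CPM in control libraries. The groups overlapped because miR-24 replicate 1 lay above control replicates 2 and 3, while each miR-24 library was below the control library of its number. The log2 fold change was -0.89 ± 0.236 (SE; edgeR adjusted p = 0.0380). Without the block it was -0.83 with an edgeR adjusted p of 0.299, and 0.849% of all tested genes were called. The call was lost without miR-24 replicate 2, 3 or 4 (edgeR adjusted p = 0.148, 0.137 and 0.122), miR-27a replicate 2 or 3 (0.0563 and 0.0517) or control replicate 3 or 4 (0.158 and 0.140). It held without control replicate 1 (0.0436) and without Rn45s (0.0479), and was lost in a fit of the miR-24 and control libraries alone (0.0581).

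Other kinetochore genes had negative values that did not pass. All 5 kinetochore and centromere genes were negative with miR-24, with a median log2 fold change of -0.27. Cenpe, the kinetochore motor, stood at -0.75 ± 0.370 (edgeR adjusted p = 0.273), the spindle gene Nusap1 at -0.56 ± 0.282 (0.275) and Mki67 at -0.77 ± 0.393 (0.285). Mki67 had 10130, 4230, 2159 and 3020 CPM in miR-24 libraries and 6181, 4475, 4925 and 15250 CPM in control libraries. Each group held 1 library far above the other 3: replicate 1 of miR-24 and replicate 4 of control. The same libraries were the highest of their groups for Cenpe (1490 and 1890 CPM) and Nusap1 (850 and 1075 CPM). Control replicate 4 was the highest control library for all 5 kinetochore and centromere genes. Without miR-24 replicate 1 the Mki67 value was -1.20 (edgeR adjusted p = 0.0421), and without control replicate 4 it was -0.29 (0.734).

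Transcripts of mitotic entry had values in both directions with miR-24. Ccnb1 had 94.3, 122, 134 and 167 CPM in miR-24 libraries, against the control values given above, a log2 fold change of 0.54 ± 0.221 (edgeR adjusted p = 0.174). Ccna2 had 557, 510, 438 and 549 CPM in miR-24 libraries and 683, 743, 620 and 672 CPM in control libraries. These groups did not overlap, but -0.40 ± 0.176 did not pass (edgeR adjusted p = 0.210). Cdc20 had 83.5, 94.8, 132.5 and 133 CPM in miR-24 libraries, all above the control libraries (0.59 ± 0.219, edgeR adjusted p = 0.139). Cdk1, with 3 sites of 7 bases for miR-24, had 67.8, 102, 131 and 149 CPM in miR-24 libraries and stood at 0.33 ± 0.270, with a 95% interval of -0.23 to 0.90 (edgeR adjusted p = 0.533). Plk1, with 1 such site, stood at 0.62 ± 0.341 (edgeR adjusted p = 0.322). Aurkb had a log2 fold change of 0.11 ± 0.226, Top2a -0.32 ± 0.172 and Cdc25b -0.63 ± 0.226, with edgeR adjusted p of 0.835, 0.305 and 0.122.

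Of the 35 members 13 were positive and 22 negative with miR-24, with a median log2 fold change of -0.07, against 0.04 over all tested genes. All 5 cytokinesis genes were positive (median 0.31). Of the 6 members with a miR-24 site 4 were negative, with a median of -0.16. Over all tested genes the median was -0.06 with a site, -0.10 with an 8-base site and 0.08 without one. Mad2l1, a checkpoint protein with an 8-base site, stood at -0.25, and Birc5, survivin, at -0.07. The count of members called was 5 without miR-24 replicate 1, with Cdc20 higher and Cenpe, Cenpf, Mki67 and Nusap1 lower, and 11.2% of all tested genes were called in that fit. It was 0 without each of the libraries whose omission ended the Cenpf call, where 0.935% to 3.55% of all tested genes were called.

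With miR-23a, 0 of 35 members passed edgeR's test, and 7 had an unadjusted p under 0.05. Over all tested genes 0.425% were called and 17% had such a p. DESeq2 with the block called 1 member, Ndc80, lower, and 3.19% of all tested genes. Ndc80 anchors microtubules at the kinetochore, and it had 146, 140, 66.5 and 127.5 CPM in miR-23a libraries and 179, 155, 166 and 229 CPM in control libraries. Every miR-23a library lay below every control library, and the log2 fold change was -0.69 ± 0.197 (edgeR adjusted p = 0.120). All 5 kinetochore and centromere genes were negative with miR-23a, with a median of -0.36. In all 5 the highest control library was control replicate 4. Of the 35 members 15 were positive and 20 negative, with a median of -0.08, against 0.04 over all tested genes.

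Cyclin genes had values in both directions with miR-23a, again without a call. Ccnb1 had 92.0, 156, 136 and 201 CPM in miR-23a libraries, with replicate 1 inside the control range, and stood at 0.70 ± 0.221 (edgeR adjusted p = 0.145). Ccna2 had 404, 726, 348 and 517 CPM, below the control library of its number in 4 of 4 pairs, at -0.48 ± 0.176 (edgeR adjusted p = 0.193). Cks2, a small Cdk-binding protein, stood at -0.87 ± 0.275 (edgeR adjusted p = 0.148), and it was the 1 member called, lower, without miR-23a replicate 2 or control replicate 2, where 0.74% and 2.54% of all tested genes were called. Cks2 has 3 pseudogene copies of 98.3% to 100% identity over 240 bases, so its counts are less certain.

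The other members named in each comparison did not pass with miR-23a. Mki67 had 5382, 6122, 2359 and 2898 CPM in miR-23a libraries, a log2 fold change of -0.89 ± 0.391, and Top2a stood at -0.26 ± 0.172 (edgeR adjusted p = 0.263 and 0.438). Plk1 had 180, 80.5, 83.0 and 105 CPM in miR-23a libraries (0.73 ± 0.348, edgeR adjusted p = 0.295), with replicate 1 well above the rest. Cdk1 stood at 0.18 ± 0.272, Cdc20 at 0.22 ± 0.221 and Aurkb at -0.04 ± 0.227, with edgeR adjusted p of 0.765, 0.629 and 0.952. Of the 4 members with a miR-23a site, Birc5, Cenpf, Mad2l1 and Ube2c, 3 were negative, with a median of -0.29, beside -0.15 for all tested genes with a site and 0.12 for those without.

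The mimics differed from each other at Cdc25b and Ccna2. In miR-23a libraries against miR-27a libraries 2 of 35 members were called, while 2.95% of all tested genes were. Cdc25b was higher with miR-23a: 311, 125, 120 and 90.2 CPM against 103, 88.2, 62.1 and 74.3 CPM with miR-27a, a log2 fold change of 0.85 ± 0.221 (edgeR adjusted p = 0.0426). Replicate 1 of miR-23a was far above the other 3, and without it the value was 0.58 (edgeR adjusted p = 0.190). Ccna2 was lower with miR-23a: 404, 726, 348 and 517 CPM against 731, 970, 674 and 699 CPM with miR-27a, at -0.65 ± 0.173 (edgeR adjusted p = 0.0464). For each gene all 4 of 4 pairs differed in the direction given, and in both genes the groups overlapped. Without the block the edgeR adjusted p was 0.229 for Cdc25b and 0.257 for Ccna2, and 0.548% of all tested genes were called.

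These calls depended on several libraries. Cdc25b was also lost without miR-23a replicate 2 or 3 (edgeR adjusted p = 0.0711 and 0.0786), miR-24 replicate 2 or 3 (0.0625 and 0.0633), miR-27a replicate 1, 2 or 3 (0.178, 0.0637 and 0.223) or control replicate 1 (0.0518). Ccna2 was lost without miR-23a replicate 1, 3 or 4 (edgeR adjusted p = 0.161, 0.220 and 0.0877), miR-24 replicate 2 or 3 (0.0537 and 0.0744), miR-27a replicate 1, 2 or 3 (0.113, 0.175 and 0.189) or control replicate 1, 3 or 4 (0.0575, 0.0587 and 0.0502). Without the 4 libraries numbered 1 both were lost (edgeR adjusted p = 0.223 for Cdc25b and 0.155 for Ccna2). Ccna2 was lost too in a fit of the miR-23a and miR-27a libraries alone (edgeR adjusted p = 0.0525), where Cks2 was called lower, without the low-count filter (0.0757) and without Rn45s (0.0513). Without miR-27a replicate 4 Ccnb1 was called lower too, and without miR-23a replicate 2 or control replicate 2 Cks2 was, with 1.95% to 3.14% of all tested genes called. Of the 35 members 31 had negative and 4 positive values, with a median of -0.28 over all 35, beside 52.8% positive and a median of 0.03 over all tested genes. Of 37 DNA replication genes 34 were negative (median -0.30), and of 73 other mitosis genes 61 were (median -0.25). The comparison with miR-27a shared these miR-27a libraries with the next one.

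In miR-24 libraries against miR-27a libraries 0 of 35 members passed edgeR's test, with 9 at an unadjusted p under 0.05. Of all tested genes 4.42% passed and 19.4% had such a p. DESeq2 called 4 members lower with miR-24, Ccna2, Ccnb1, Cenpf and Tpx2, and limma called these and Kif11, where they called 8.41% and 7.65% of all tested genes. In edgeR, Cenpf stood at -0.81 ± 0.232 (adjusted p = 0.0521), Ccnb1 at -0.69 ± 0.205 (0.0623) and Ccna2 at -0.57 ± 0.172 (0.0674). Tpx2, which activates Aurora A on the spindle, had 304.5, 280, 284 and 348 CPM in miR-24 libraries and 523, 492, 400.1 and 405 CPM in miR-27a libraries, with no overlap (-0.57 ± 0.163, edgeR adjusted p = 0.0522). Of the 35 members 31 had negative and 4 positive values, with a median of -0.28 over all 35, beside 52.2% positive and a median of 0.03 over all tested genes. Of 37 DNA replication genes 25 were negative (median -0.17), and of 73 other mitosis genes 49 were (median -0.12). Omitting replicate 4 of miR-24 gave 3 called members, omitting replicate 1 of miR-24 or replicate 4 of miR-27a gave 2, and omitting replicate 1 or 2 of miR-23a or replicate 2 or 4 of control gave 1. Of all tested genes 4.08% to 5.56% were called in these fits.

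In miR-23a libraries against miR-24 libraries 0 of 35 members passed edgeR's test, with 7 at an unadjusted p under 0.05, and DESeq2 called 2, Cdc25b and Tpx2, higher. Of all tested genes 5.38% passed edgeR's test, 18.4% had such a p and 8.58% were called by DESeq2. Cdc25b stood at 0.74 ± 0.218 (edgeR adjusted p = 0.0541) and Tpx2 at 0.50 ± 0.163 (0.0912). The median of the members was -0.04. The count was 1 without miR-23a replicate 2 or replicate 1 or 4 of miR-24, where 4.02% to 6% of all tested genes were called.

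A joint test of any difference among the 4 groups called 4 of 35 members, while 9.68% of all tested genes were called. They were Ccnb1, Cdc25b, Ccna2 and Anln, with edgeR adjusted p of 0.00883, 0.0262, 0.0396 and 0.0400. Omitting 1 library gave 7 members without miR-24 replicate 1 or miR-27a replicate 4 and 6 without miR-23a replicate 2, where 13.2%, 11.2% and 10.4% of all tested genes were called. It gave 0 without miR-27a replicate 3 (5.38% of all tested genes), and 1 or 2 without miR-23a replicate 1, 3 or 4, miR-24 replicate 2 or 3, miR-27a replicate 1 or 2, or control replicate 1, 3 or 4, with Ccnb1 among them in each and 4.44% to 8.29% of all tested genes called. Without the block the same test called 0 members, with 7 at an unadjusted p under 0.05 and a lowest edgeR adjusted p of 0.0789, for Ccnb1. Of all tested genes it called 1.94%, and 17.1% had such an unadjusted p.

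Other genes of the pathway came from 4 further lists. Among 73 other mitosis genes, 1 fell with miR-23a, 1 rose and 1 fell with miR-24, and 3 rose and 1 fell with miR-27a. In these comparisons 0.425%, 4.56% and 3.07% of all tested genes were called. Hmgb2, a chromatin protein of dividing cells, had 575 ± 314 CPM with miR-23a and 1658 ± 375 CPM in control libraries (SD, n = 4 each; log2 fold change -1.75 ± 0.275, edgeR adjusted p = 0.00553). Tacc3, which stabilises spindle microtubules, had 89.7 ± 14.9 CPM with miR-24 and 227.5 ± 33.0 CPM in control libraries (-1.36 ± 0.189, edgeR adjusted p = 0.000676). Iqgap3, a cytoskeletal scaffold of proliferating cells, rose with miR-24 (1.63 ± 0.235) and with miR-27a (1.75 ± 0.238). Gtse1, a G2 and S phase protein, was also called higher with miR-27a (0.98, edgeR adjusted p = 0.0496). So was Psrc1, a spindle protein (0.78, edgeR adjusted p = 0.0281). Sgol1, the shugoshin that guards centromere cohesion, was called lower with miR-27a (-0.93, edgeR adjusted p = 0.0444).

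Among 24 transcription regulators of mitosis genes, Rbl2, the p130 protein of the DREAM repressor that binds CHR promoters in resting cells, fell with miR-24 (-1.48 ± 0.211) and with miR-27a (-1.20 ± 0.207). It had 204 ± 29.3 CPM with miR-24, 261 ± 100.4 CPM with miR-27a and 576 ± 184 CPM in control libraries. E2f8, a repressor of E2F targets, fell with miR-24 (-0.89, edgeR adjusted p = 0.0367). Of 15 genes of the anaphase-promoting complex and its regulators, Cdc27 fell with miR-24 (-1.003 ± 0.222). Among 37 replication genes, Orc1, Rfc3 and Uhrf1 rose with miR-24 (0.73, 1.20 and 0.90), with edgeR adjusted p of 0.0449, 0.022 and 0.0421. Uhrf1 rose with miR-27a (1.23, edgeR adjusted p = 0.0132). Over all tested genes 4.56% were called with miR-24 and 3.07% with miR-27a, 1.75% of them higher with miR-27a as a share of all tested. Without the block the edgeR adjusted p stayed under 0.05 for Tacc3 (0.0117), Rbl2 with miR-24 (0.0101) and Iqgap3 with miR-24 and miR-27a (0.00946 and 0.00836). The other calls named from these lists had 0.0542 (Cdc27) to 0.371 (Rfc3), with 0.258 for Hmgb2. Fits that left out 1 library are not described for the genes of these lists.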

How the data were processed

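Per the labels' protocols, 1 ng of RNA from 150000 to 800000 sorted cells was amplified (NuGEN Ovation V2) and sequenced as single 50-nt reads, 4 libraries per lane. The authors deposited 1 table of raw counts per gene for each library. The submitters' processing notes name TopHat, Bowtie2, DESeq and mm10. Versions, the counter, its annotation and strand use are not given in the sources used here. Of the members 9, among them Ccna2, Cdc20, Cdc25b, Plk1 and Kif20a, overlap exons of a gene on the other strand. The 5 summary lines, 64.6% to 77.6% of reads, were left out.

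Counts were fitted with edgeR 4.0.16 (R 4.3.3; TMM, filterByExpr by group, robust quasi-likelihood, two-sided, Benjamini-Hochberg at 0.05) in all 16 libraries with the group and the replicate number. DESeq2 1.42.0 and limma 3.58.1 were alternatives. The test was checked on simulated counts. CPM was computed on TMM-scaled library sizes, with a prior count of 2 for log2-CPM. Poisson intervals of CPM cover counting error only. Intervals of log2 fold changes rest on the SE of the edgeR fit, which includes the spread between libraries. The reads carry no molecular identifiers.

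The members and lists were chosen with earlier results of these data known. Given in full are Ccnb1, Cdk1, Ccna2, Plk1, Aurkb, Cdc20, Top2a and Mki67 in comparisons with control and every called member, and up to 5 called genes for each other list and comparison with control. Other members were named after their values were seen.

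The replicate number was checked as a pairing. Over all tested genes with group means removed, same-numbered libraries correlated above 0.1 in 4 of 4 pairs for miR-23a paired with either miR-24 or miR-27a, and in 2 or 3 of 4 for the other comparisons. Among genes with mean log2-CPM above 5, all 4 passed for miR-27a with control (0.198 to 0.611) and for miR-23a with either other mimic. In the same genes 3 of 4 passed for the other comparisons. The pair that failed stood at -0.12 for miR-23a with control (replicate 2) and 0.0313 for miR-24 with control (replicate 4). For miR-24 with miR-27a it stood at -0.00614 (replicate 4). The labels do not say what the number stands for.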

Additional observations from a re-analysis of the deposited data

Results flagged for a closer look

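In 3 of 44 groups of 4 libraries examined for single members, 1 library lay far from the other 3, relative to the group's range (past Dixon's critical value), and chance alone gives about 5% of groups. Mki67 had 15250 CPM in control replicate 4, against 4475 to 6181 CPM in the other control libraries. Anln had 684.6 CPM in miR-24 replicate 4, against 520.5 to 544.2 CPM in the other miR-24 libraries. Cdc25b had 311.1 CPM in miR-23a replicate 1, against 90.18 to 125.4 CPM in the other miR-23a libraries.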

How the results depend on the processing

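The replicate block decided the member calls. With no replicate block, edgeR called 0 members with miR-24 and 0 with miR-27a against control, 0 in miR-23a against miR-27a and 0 in the joint test, and likewise 0 in each of these without control replicate 1, an alternative added after the data were seen. Over all genes the calls without the block were 17, 110 and 22 for miR-23a, miR-24 and miR-27a against control, against 55, 591 and 398 with it. Fits that left out 1 library gave 0 to 1 called members for miR-23a against control (0.0912% to 2.54% of all tested genes), 0 to 5 for miR-24 (0.935% to 11.2%) and 0 to 6 for miR-27a (0.388% to 7.67%). They gave 0 to 3 for miR-24 against miR-27a (1.44% to 5.56%) and 0 to 1 for miR-23a against miR-24 (1.99% to 6%). For miR-23a against miR-27a they gave 0 to 3 (0.967% to 4.14%), and in the joint test 0 to 7 (4.44% to 13.5%). Fitting only the libraries compared gave 0 for miR-24 and 13 for miR-27a against control, where 3.87% and 16.7% of all tested genes were called. DESeq2 gave 1, 2 and 5 for miR-23a, miR-24 and miR-27a against control, where it called 3.19%, 8.44% and 7.96% of all tested genes. It gave 4 for miR-24 against miR-27a (8.41% of all tested genes), 2 for miR-23a against miR-24 (8.58%), 3 for miR-23a against miR-27a (5.65%) and 7 in the joint test (18.7%). Limma with sample weights gave 5 for miR-24 against miR-27a (7.65% of all tested genes), 4 for miR-23a against miR-27a (4.04%) and 3 in the joint test (4.95%). DESeq2's size factors in edgeR also gave 3 in the joint test (9.5% of all tested genes). Without the low-count filter the count was 1 for miR-27a against control (2.3% of all tested genes) and 1 for miR-24 against miR-27a (3.06%). It was 1 for miR-23a against miR-27a (2.06%) and 2 in the joint test (7.06%). Leaving Rn45s out gave 1 for miR-23a against miR-27a (2.91% of all tested genes). Without the 4 libraries numbered 1 the counts were 4 for miR-24 (8.71% of all tested genes) and 1 for miR-27a (2.08%) against control. They were 1 for miR-24 against miR-27a (2.95%), 0 for miR-23a against miR-27a (1.79%) and 2 in the joint test (7.77%). The cause was not tested for any of these. Over 25 alternatives the members' median log2 fold change ran from -0.22 to 0.03 for miR-23a, from -0.19 to 0.00061 for miR-24 and from 0.06 to 0.23 for miR-27a against control. In the comparison that called it, no called member changed sign in any of these alternatives. Depth limits control replicate 1 most, where 3 reads are 48.8 CPM.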
